A study of Homo sapiens with 16 samples.

Results

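The 10 cytosolic heat shock chaperone mRNAs HSPA8, HSPA1A, HSPA1B, HSPH1, HSP90AA1, HSP90AB1, DNAJA1, DNAJB1, HSPB1 and BAG3 were followed through all 16 libraries of an RNA proximity-labelling series in HEK293T, a human embryonic kidney cell line. They were chosen by gene name as HSP70, HSP110, HSP90, HSP40 and small heat shock genes with a BAG co-chaperone. Earlier results of these data were known at the choice, so counts of members beside shares of all genes are a description. The members make up 10 of the 24878 genes with a value. All 10 had at least 1 CPM (a read count scaled to library size) in at least 2 libraries and were tested in every comparison. BS2, an esterase, was expressed from a transiently transfected plasmid with a tag that places it in the cytosol, the nucleus, the mitochondria or, by a tag named NIK3x, the nucleolus. The share of transfected cells was not given in the sources used here. BS2 unmasks the probe AC-2, so that RNA near the enzyme is labelled, clicked to biotin and pulled down.

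The 12 pull-downs were 2 of cytosolic BS2, 3 of nuclear BS2, 2 of mitochondrial BS2, 2 of nucleolar BS2 and 3 of non-transfected wild-type cells, labelled as biological replicates. The 4 inputs were 1 library each of cytosolic, nuclear and mitochondrial BS2 cells and of non-transfected cells, and no nucleolar input was used here. Every group, the non-transfected one included, received 50 µM AC-2 for 3 min, then 1 mM PMSF to stop the reaction, and BS2 cells were taken 24 h after transfection. All pull-downs were also selected by poly(A) tail. The non-transfected cells lacked the plasmid and the transfection as well as BS2, so the effects of these on chaperone mRNA cannot be told apart from labelling in the comparisons against them.

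Heat shock proteins fold new proteins, hold damaged ones and hand them on between machines. HSP70 proteins bind exposed stretches of a client, HSP40 proteins deliver the client and trigger ATP hydrolysis by HSP70, and HSP110 and BAG proteins make HSP70 let go of nucleotide and client. HSP90 matures kinases and receptors further on, and small heat shock proteins hold unfolded clients without ATP. Heat shock factor 1 binds repeated GAA units in the promoters of the inducible members after stress, while HSPA8 and HSP90AB1 are known as the constitutive forms.

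Libraries held 6.34 to 20.0 M reads, as estimated from the smallest step between deposited values, so that 1 read stood for 0.0541 to 0.154 CPM. The deposited CPM of all genes summed to 84.7% to 91.5% of the nominal total in the nuclear pull-downs, against 104% to 110% in the non-transfected ones. HEK293T markers were present, with NEFM at 90.2 to 274 CPM and VIM at 171 to 489 CPM. Markers of blood cells, fibroblasts and keratinocytes (PTPRC, CD3E, HBA1, HBB, COL1A2, DCN and KRT5) lay at 0 to 1.97 CPM in every library.

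The proximal promoters of 4 members are shown because HSPA1A and HSPA1B are near-identical copies, HSPA8 has the most paired GAA units per window among those printed, and BAG3 and HSPA1B moved in opposite directions in the BS2 pull-downs. Each is the RefSeq window on GRCh38.p14 from 250 bases before to 50 after the annotated start, 5′ to 3′ on the strand of the gene. HSPA1A lies at chr6:31815293-31815592 on the plus strand, HSPA1B at chr6:31827488-31827787 on the plus strand, HSPA8 at chr11:123062087-123062386 on the minus strand and BAG3 at chr10:119651130-119651429 on the plus strand. Capitals mark matches to a pair of inverted units, GAANNTTC or TTCNNGAA, overlapping matches joined; each of these motifs reads the same on both strands.
HSPA1A: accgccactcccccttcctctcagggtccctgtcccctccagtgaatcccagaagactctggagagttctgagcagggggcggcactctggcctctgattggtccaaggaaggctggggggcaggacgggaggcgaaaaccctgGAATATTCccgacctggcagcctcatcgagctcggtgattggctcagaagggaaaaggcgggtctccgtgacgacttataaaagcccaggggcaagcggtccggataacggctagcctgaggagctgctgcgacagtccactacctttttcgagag
HSPA1B: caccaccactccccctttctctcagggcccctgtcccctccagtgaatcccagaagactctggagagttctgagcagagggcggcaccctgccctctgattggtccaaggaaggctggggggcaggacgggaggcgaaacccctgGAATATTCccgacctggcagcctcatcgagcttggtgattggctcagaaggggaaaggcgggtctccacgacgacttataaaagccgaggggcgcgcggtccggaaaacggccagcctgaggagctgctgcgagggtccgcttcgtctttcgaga
HSPA8: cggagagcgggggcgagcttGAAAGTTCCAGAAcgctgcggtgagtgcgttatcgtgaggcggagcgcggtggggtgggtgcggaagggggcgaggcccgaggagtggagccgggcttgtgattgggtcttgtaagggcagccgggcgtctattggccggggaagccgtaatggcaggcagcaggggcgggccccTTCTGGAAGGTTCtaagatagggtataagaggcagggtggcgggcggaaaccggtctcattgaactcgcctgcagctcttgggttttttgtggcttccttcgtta
BAG3: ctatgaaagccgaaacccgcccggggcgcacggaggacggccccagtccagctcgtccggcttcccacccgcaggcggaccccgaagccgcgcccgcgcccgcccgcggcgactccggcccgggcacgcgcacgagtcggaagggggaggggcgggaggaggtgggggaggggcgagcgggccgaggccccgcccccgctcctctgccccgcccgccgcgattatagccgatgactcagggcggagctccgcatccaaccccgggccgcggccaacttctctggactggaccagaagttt

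HSPA1A and HSPA1B each held 1 paired unit, starting 106 and 105 bases before the start, and each held 1 TATAAA. The HSPA8 window held 4 overlapping matches, which form 2 runs of 3 alternating units, GAANNTTCNNGAA or TTCNNGAANNTTC. A paired unit was present in 13.5% and a run of 3 units in 0.49% of 35116 human promoter windows of the same length, and TATAAA, on either strand, in 11.5%. The BAG3 window printed held no match to these letters, which says nothing of sites elsewhere. RefSeq lists 15 such windows for the 10 members, since some have several starts, and 8 members had a match in at least 1 window. The single windows of HSPH1 and BAG3 had none, and that of DNAJA1 had 3.

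HSPA1A (chr6:31815464-31817946) and HSPA1B (chr6:31827735-31830255) sit side by side on the plus strand, in the coordinates of GENCODE 29 on GRCh38. Their coding sequences of 1923 nt differ at 4 positions, an identity of 99.8%. Of the 50-nt windows of the annotated transcripts, 72.6% of those of HSPA1A occur unchanged in HSPA1B and 71.4% of those of HSPA1B in HSPA1A. How reads were divided between these copies is therefore uncertain, and the values of the pair summed are given beside the tests. HSPA1B is annotated as a single exon of 2521 nt. Per kilobase of median transcript length, the non-transfected pull-downs held 1133 CPM of HSP90AA1, 715 of HSP90AB1, 706 of HSPA8 and 297 of HSPA1B. DNAJA1 followed with 164, HSPH1 with 65.2, HSPB1 with 63.6, DNAJB1 with 54.5, BAG3 with 15.9 and HSPA1A with 6.90 CPM per kilobase. In this order, the neighbours HSP90AB1 and HSPA8, HSPH1 and HSPB1, and HSPB1 and DNAJB1 do not differ beyond the spread of their libraries.

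HSPA8, the constitutive HSP70, had 1458 and 1471 CPM in cytosolic BS2 pull-downs, 919.6, 935 and 889 CPM in nuclear ones and 1335 and 1235 CPM in mitochondrial ones. It had 1789.7 and 1831 CPM in nucleolar BS2 pull-downs, against 1333, 1428 and 1485 CPM in non-transfected pull-downs. Nuclear libraries were all below and nucleolar libraries all above the non-transfected ones, while cytosolic and mitochondrial libraries overlapped them. Here and for the genes below, the share of all genes whose libraries separate in this way was not counted. In the limma tests that follow, 51.3% to 66.4% of all genes had an adjusted p under 0.05 against non-transfected cells. The inputs held 2321 CPM with cytosolic, 2308 with nuclear and 2238 with mitochondrial BS2, against 1587 CPM without transfection.

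HSPA1B, an HSP70 known for strong induction by heat, had 624 and 609.9 CPM in cytosolic, 312, 317 and 387 CPM in nuclear and 421 and 375 CPM in mitochondrial BS2 pull-downs. It had 380.4 and 305 CPM in nucleolar BS2 pull-downs, against 697, 716 and 833 CPM in non-transfected ones. All 9 BS2 pull-downs lay below the 3 non-transfected ones. The inputs went the other way, with 1992 CPM for cytosolic, 1361 for nuclear and 1199 for mitochondrial BS2, against 863 CPM without transfection. HSPA1A, its copy, had 12.8 and 9.31 CPM in cytosolic, 5.58, 5.95 and 7.53 CPM in nuclear and 9.63 and 5.89 CPM in mitochondrial BS2 pull-downs. It had 10.8 and 10.2 CPM in nucleolar BS2 pull-downs, against 14.6, 13.0 and 17.9 CPM in non-transfected ones. These groups did not overlap with the non-transfected one either. Its inputs held 46.8, 30.3 and 22.3 CPM with cytosolic, nuclear and mitochondrial BS2, against 22.4 CPM without transfection.

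HSPH1, the HSP110 that exchanges the nucleotide of HSP70, had 397 and 422 CPM in cytosolic, 298, 295 and 236 CPM in nuclear and 376 and 372 CPM in mitochondrial BS2 pull-downs. It had 508 and 471 CPM in nucleolar BS2 pull-downs, against 268, 291 and 278 CPM in non-transfected ones. Every group but the nuclear one lay above the non-transfected libraries. DNAJA1, an HSP40 of the class with a zinc-binding domain, had 488 and 487 CPM in cytosolic, 379, 361 and 324 CPM in nuclear and 500.3 and 458 CPM in mitochondrial BS2 pull-downs. It had 714 and 649 CPM in nucleolar BS2 pull-downs, against 369, 393 and 409 CPM in non-transfected ones. It showed the same order of groups as HSPH1. DNAJB1, the heat-inducible HSP40, varied least. It had 113 and 111 CPM in cytosolic, 86.4, 90.2 and 94.0 CPM in nuclear, 95.8 and 86.4 CPM in mitochondrial and 109 and 91.9 CPM in nucleolar BS2 pull-downs, against 93.8, 98.0 and 98.6 CPM in non-transfected ones. Its cytosolic libraries were the only ones of a BS2 group that did not overlap the non-transfected libraries.

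HSP90AA1, the inducible cytosolic HSP90, had 3211 and 3256 CPM in cytosolic, 2163, 2172 and 1902 CPM in nuclear and 3448 and 3372 CPM in mitochondrial BS2 pull-downs. It had 3548 and 3424 CPM in nucleolar BS2 pull-downs, against 3694, 3905 and 4108 CPM in non-transfected ones. The nuclear libraries stood well below all others. HSP90AB1, the constitutive HSP90, had 1631 and 1627 CPM in cytosolic, 1156, 1211 and 1098 CPM in nuclear and 1448 and 1395 CPM in mitochondrial BS2 pull-downs. It had 1564 CPM in both nucleolar BS2 pull-downs, against 1757, 1924 and 1923 CPM in non-transfected ones. In deposited CPM all 9 BS2 pull-downs lay below the non-transfected ones for both HSP90 mRNAs, which was not compared with all genes. HSP90AA1 inputs held 3547 CPM with cytosolic, 2940.2 with nuclear and 3322 with mitochondrial BS2, against 3388 CPM without transfection.

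HSPB1, the small heat shock protein HSP27, had 21.8 and 20.4 CPM in cytosolic, 11.6, 8.81 and 17.1 CPM in nuclear and 15.2 and 12.4 CPM in mitochondrial BS2 pull-downs. It had 27.1 and 23.0 CPM in nucleolar BS2 pull-downs, against 46.9, 36.3 and 53.9 CPM in non-transfected ones. All 9 BS2 pull-downs were lower, and the 3 transfected inputs, at 59.7 to 67.0 CPM, were also below the 90.5 CPM of the non-transfected input. BAG3, a co-chaperone that releases clients from HSP70 and links it to small heat shock proteins and autophagy, had 92.8 and 92.0 CPM in cytosolic, 89.4, 84.3 and 95.3 CPM in nuclear and 78.1 and 70.8 CPM in mitochondrial BS2 pull-downs. It had 131 and 118 CPM in nucleolar BS2 pull-downs, against 42.5, 38.2 and 41.5 CPM in non-transfected ones. All 9 BS2 pull-downs were above the non-transfected ones, and so were the inputs, with 67.4, 72.7 and 64.8 CPM for cytosolic, nuclear and mitochondrial BS2, against 43.5 CPM without transfection.

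**Figure D1:**
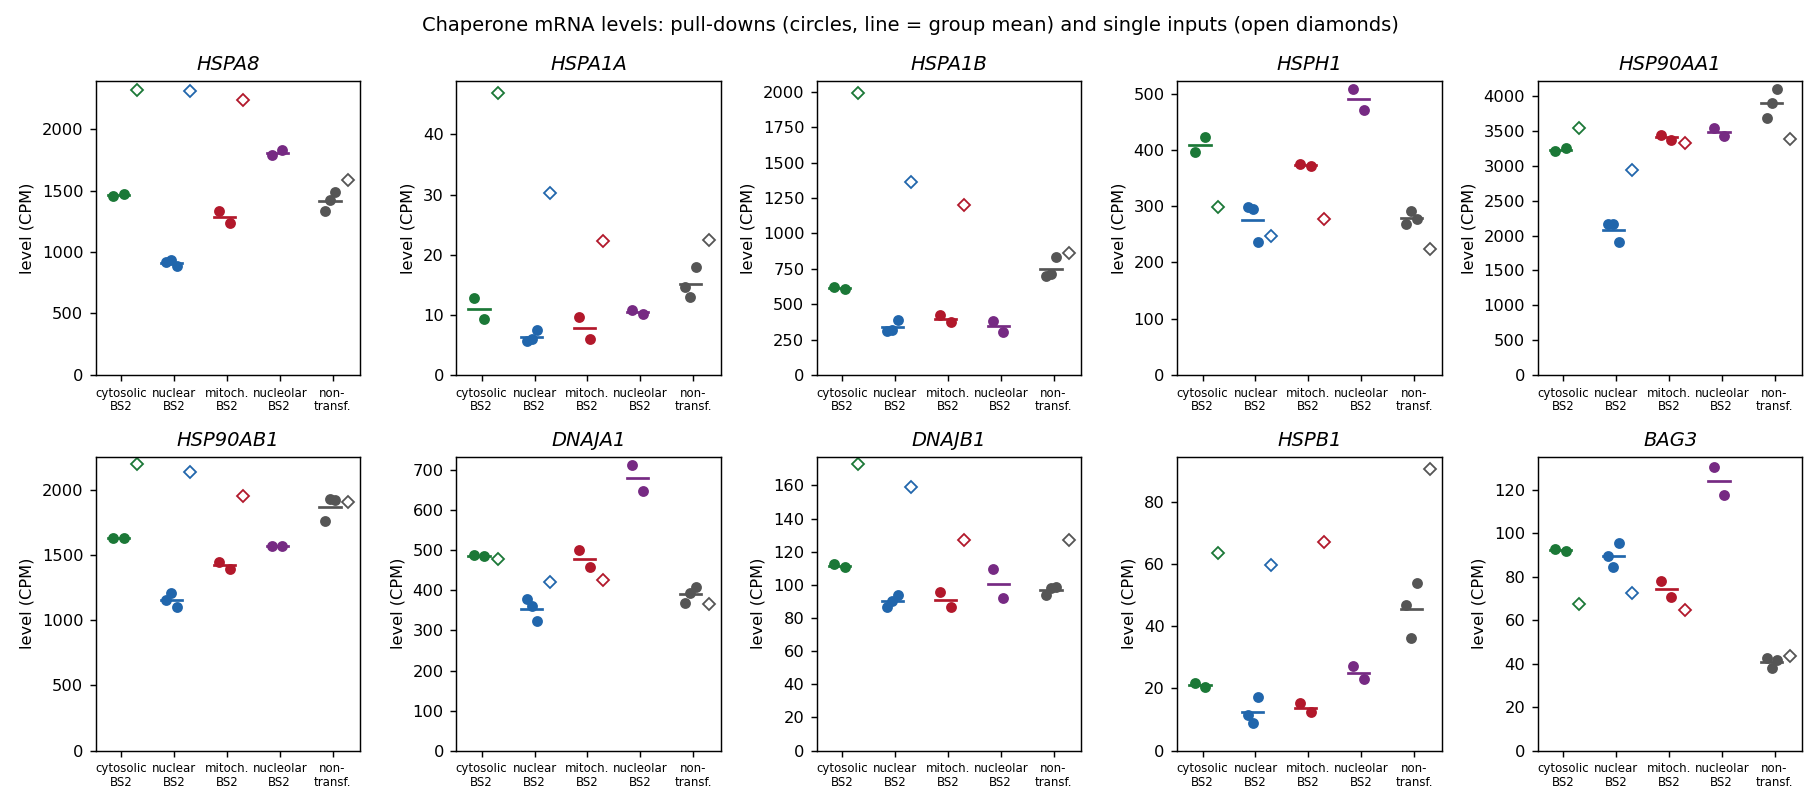
Level in CPM on a linear axis from 0 for each of the 10 chaperone mRNAs in every library, with pull-downs as circles, group means as lines and single inputs as open diamonds, in the order cytosolic, nuclear, mitochondrial and nucleolar BS2 and non-transfected cells. BAG3 is higher and HSPA1B lower in all 9 BS2 pull-downs than in the 3 non-transfected ones, while HSPA1B is higher in the 3 transfected inputs than in the non-transfected input.

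With nuclear BS2, HSPB1, both HSPA1 copies, both HSP90 mRNAs and HSPA8 were lower than without BS2, and BAG3 was higher. Changes are given on the log2(CPM + 1) scale with a standard error, from limma across all 12 pull-downs, and passed at a Benjamini-Hochberg adjusted p under 0.05 over 16133 genes. HSPB1 fell most, to 12.5 ± 4.23 CPM in nuclear BS2 pull-downs, against 45.7 ± 8.88 CPM in non-transfected ones (SD, n = 3 each), a change of -1.82 ± 0.19. HSPA1B changed by -1.14 ± 0.10 and HSPA1A by -1.13 ± 0.18, and the pair summed by -1.15 ± 0.10 (limma adjusted p = 1.68e-07). HSP90AA1 changed by -0.91 ± 0.08, HSP90AB1 by -0.69 ± 0.07 and HSPA8 by -0.63 ± 0.07 (limma adjusted p = 1.63e-06). All 6 mRNAs that fell encode HSP70, HSP90 or small heat shock proteins. BAG3 rose by 1.12 ± 0.08 (limma adjusted p = 1.75e-08). HSPH1 (-0.02), DNAJA1 (-0.14) and DNAJB1 (-0.10) did not pass.

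In that comparison 6 of 10 members fell, where 34.2% of all genes did, and 1 rose, where 32.2% did. Here and in the counts below, HSPA1A and HSPA1B, which share reads, are counted as separate genes. The 7 members that passed in either direction compare with 66.4% of all genes, a share near the background. Chaperones of other compartments fell alike. Of 11 chaperone mRNAs of the endoplasmic reticulum 7 fell and 1 rose, with a median of -0.66. Of 8 mitochondrial chaperone mRNAs 6 fell and 2 rose, with a median of -0.55. The median of the members was -0.66, and of all genes tested -0.03. When CPM was rescaled to a common total, which raised the median of all genes to 0.22, the falls became smaller, at -0.35 for HSPA8, -0.63 for HSP90AA1 and -0.86 for HSPA1B, and all 6 still passed. Of all genes 7235 then rose and 3652 fell, against 5194 and 5511 before. Under that scaling HSPH1 was at 0.26 and DNAJA1 at 0.14, past the threshold in the opposite direction. Under quantile normalization HSPA8 turned to 0.33 and HSP90AB1 to 0.13, while HSP90AA1, at -0.33, HSPA1B, at -0.68, HSPA1A and HSPB1 still fell. As the libraries are bulk RNA, a change in all cells and a change in the transfected ones alone cannot be told apart.

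With cytosolic BS2, BAG3, HSPH1 and DNAJA1 were higher and HSPB1 and HSP90AA1 lower than without BS2. BAG3 reached 92.4 ± 0.562 CPM in cytosolic BS2 pull-downs (SD, n = 2), against 40.8 ± 2.24 CPM in non-transfected ones (SD, n = 3), a change of 1.16 ± 0.09. HSPH1 rose by 0.55 ± 0.10 (limma adjusted p = 0.00024) and DNAJA1 by 0.32 ± 0.09. HSPB1 changed by -1.06 ± 0.21 and HSP90AA1 by -0.27 ± 0.09 (limma adjusted p = 0.0204), which turned to 0.20 under quantile normalization and lost its call when non-transfected replicate 2 or 3 or either cytosolic library was left out. The 3 members that rose compare with 28.9% of all genes and the 2 that fell with 22.4%. Together the 5 that passed compare with 51.3% of all genes. HSPA1B, at -0.28 ± 0.12, HSP90AB1, at -0.20 ± 0.08, and DNAJB1, at 0.20 ± 0.09, had adjusted p of 0.0595, 0.0521 and 0.0728 in limma and did not pass. HSPA8 was at 0.05 ± 0.08 and did not pass, but reached 0.60 and passed under quantile normalization. HSPH1 was at 0.25 with a trend with transcript length and GC content taken out.

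With mitochondrial BS2, the same 3 mRNAs BAG3, HSPH1 and DNAJA1 were higher, and HSPB1, both HSPA1 copies and HSP90AB1 were lower than without BS2. BAG3 rose by 0.85 ± 0.09, HSPH1 by 0.42 ± 0.10 and DNAJA1 by 0.29 ± 0.09, the last losing its call without mitochondrial replicate 1 (limma adjusted p = 0.101). With a trend with transcript length and GC content taken out, HSPH1 was at 0.02 and DNAJA1 at 0.13, and neither passed. HSPB1 changed by -1.65 ± 0.21, HSPA1B by -0.91 ± 0.12, HSPA1A by -0.90 ± 0.20 and HSP90AB1 by -0.39 ± 0.08. Without mitochondrial replicate 2 HSPA1A was at -0.59. Of the members 3 rose, where 28.9% of all genes did, and 4 fell, where 27.0% did, or 7 in either direction beside 55.9%. HSPA8, at -0.14, turned to 0.38 under quantile normalization and HSP90AB1 was then at -0.03 and lost its call.

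With nucleolar BS2, BAG3, HSPH1, DNAJA1 and HSPA8 were higher and HSPA1B and HSPB1 lower than without BS2. BAG3 reached 124 ± 9.19 CPM in nucleolar BS2 pull-downs (SD, n = 2), a change of 1.58 ± 0.09 (limma adjusted p = 1.22e-09). HSPH1 rose by 0.81 ± 0.10, DNAJA1 by 0.80 ± 0.09 and HSPA8 by 0.36 ± 0.08, which was 0.70 under quantile normalization. HSPH1 and DNAJA1 are partners that drive the HSP70 cycle of HSPA8. HSPA1B changed by -1.13 ± 0.12, HSPB1 by -0.83 ± 0.21 and HSP90AB1 by -0.25 ± 0.08, and HSPA1A by -0.48 ± 0.20 at an adjusted p of 0.0489 in limma. HSP90AB1 lost its call without either nucleolar library, by median-of-ratios scaling, at -0.20, and under quantile normalization, at -0.03. HSPA1A lost its call without either nucleolar library or non-transfected replicate 1 or 3, under all 4 other scalings, with a pseudocount of 0.5, on the deposited log2 values, with no filter and with no trend. Of the members 4 rose, where 30.1% of all genes did, and 4 fell, where 35.6% did, or 8 in either direction beside 65.7%. The 4 comparisons share the 3 non-transfected pull-downs.

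**Figure D2:**
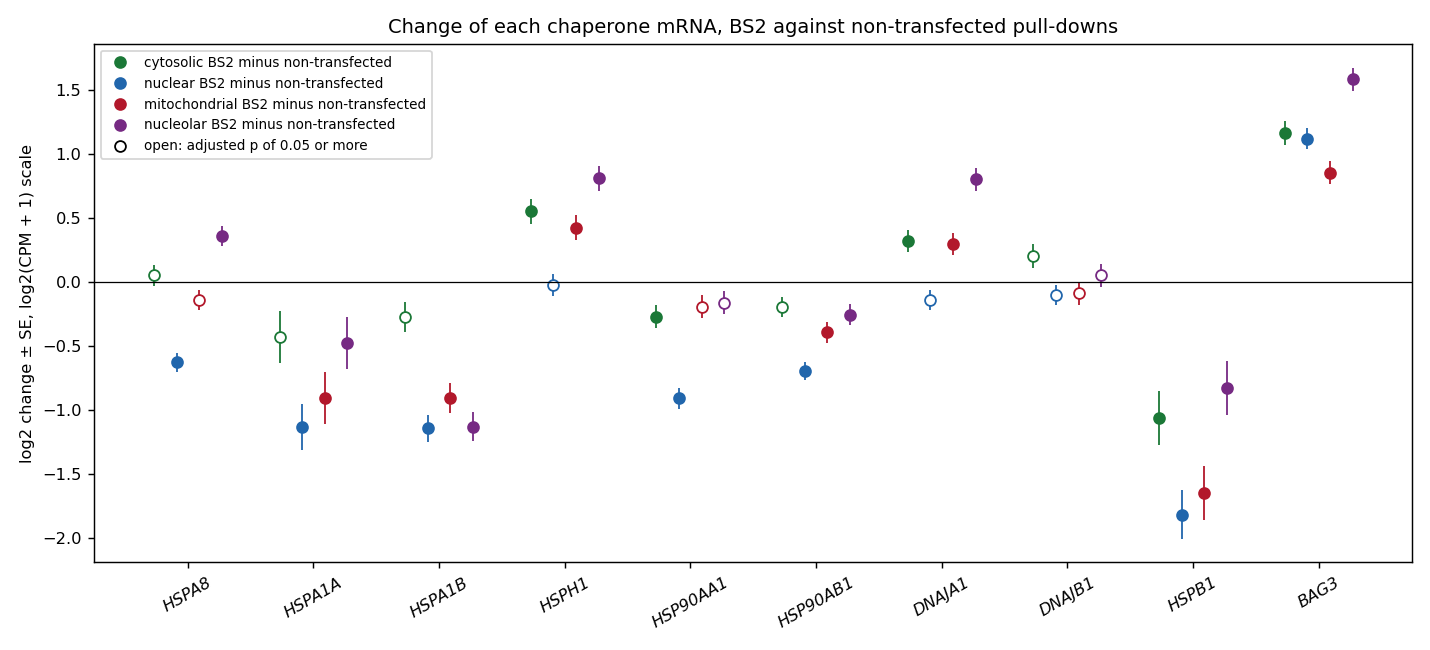
Change of each chaperone mRNA between BS2 and non-transfected pull-downs on the log2(CPM + 1) scale, with standard errors, for cytosolic, nuclear, mitochondrial and nucleolar BS2 in that order within each gene; open circles did not pass an adjusted p of 0.05 in limma. BAG3 lies above 0 in all 4 comparisons and HSPB1 below 0 in all 4, while under quantile normalization HSPH1 and DNAJA1 turned in the nuclear, HSPA8 in the nuclear and mitochondrial, HSP90AA1 in the cytosolic and HSP90AB1 in the cytosolic and nuclear comparison.

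Between BS2 constructs, where every culture was transfected, nuclear pull-downs held less of nearly every chaperone mRNA than cytosolic ones. HSPA1B changed by -0.87 ± 0.12, HSPB1 by -0.76 ± 0.21, HSPA1A by -0.71 ± 0.20, HSPA8 by -0.68 ± 0.08 and HSP90AA1 by -0.64 ± 0.09. HSPH1 (-0.57), HSP90AB1 (-0.50), DNAJA1 (-0.46) and DNAJB1 (-0.30) also fell, and BAG3, at -0.04 ± 0.09, did not pass. The 9 members that fell compare with 23.2% of all genes, and none rose, where 10.2% did, or 33.4% in either direction. All 8 subunits of the TRiC chaperonin fell too. So did 7 of 11 chaperone mRNAs of the endoplasmic reticulum and 5 of 8 mitochondrial ones, and none of these rose. By common total, which moved the median of all genes to 0.10 from -0.12, 3036 genes rose and 936 fell, against 1640 and 3747 before, and under quantile normalization 1755 rose and 1654 fell. By common total HSPA1A, HSPB1 and DNAJB1 lost their calls and BAG3 turned to 0.20. Without cytosolic replicate 1 the same 3 calls were lost, without cytosolic replicate 2 those of HSPB1 and DNAJB1, and without nuclear replicate 2 that of HSPB1. Under quantile normalization HSP90AB1, at -0.14, DNAJA1, at -0.13, and DNAJB1, at -0.08, lost their calls. HSPA8, HSPA1B, HSPH1 and HSP90AA1 fell under every scaling tried, with HSPA8 as small as -0.27, HSPH1 as small as -0.25 and HSP90AA1 as small as -0.39.

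Nucleolar pull-downs held more of most members than nuclear ones. HSPB1 rose by 0.99 ± 0.21, HSPA8 by 0.98 ± 0.08, DNAJA1 by 0.94 ± 0.09, HSPH1 by 0.83 ± 0.10 and HSP90AA1 by 0.75 ± 0.09. HSPA1A, at 0.65 ± 0.20, BAG3, at 0.46 ± 0.09, and HSP90AB1, at 0.44 ± 0.08, also rose, but HSP90AA1 and HSP90AB1 turned to -0.11 and -0.17 under quantile normalization. HSPA1A lost its call by common total and without nuclear replicate 2 or either nucleolar library. HSPA1B was at 0.01 ± 0.12 and DNAJB1 at 0.15 ± 0.09, neither of which passed, and both were below 0 by common total. The 8 members that rose compare with 16.6% of all genes, and none fell, where 17.9% did, or 34.5% in either direction. By common total 1702 genes rose and 5563 fell, against 2679 and 2888 before, and BAG3 was at 0.27 and HSP90AB1 at 0.24, both still past the threshold. HSPA8 was at 0.37 under quantile normalization and passed. Between mitochondrial and cytosolic BS2, HSPA1B alone passed, at 398 ± 32.7 CPM in mitochondrial and 617 ± 9.63 CPM in cytosolic pull-downs (SD, n = 2 each), a change of -0.63 ± 0.13 (limma adjusted p = 0.0267). In that comparison 0.198% of all genes fell and 0.632% rose, or 0.831% in either direction, as 32 and 102 genes. By common total 58 genes fell and 105 rose. The call was lost whichever of these 4 libraries was left out, and HSP90AA1, at 0.08 ± 0.10, turned to -0.79 and passed under quantile normalization.

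The summed share of the 10 mRNAs in all CPM followed the same groups. It was 0.775% ± 0.00418 in cytosolic (SD, n = 2), 0.605% ± 0.019 in nuclear (SD, n = 3), 0.716% ± 0.00291 in mitochondrial (SD, n = 2) and 0.856% ± 0.00819 in nucleolar BS2 pull-downs (SD, n = 2), against 0.825% ± 0.0248 in non-transfected ones (SD, n = 3). In the inputs it was 1.13% with cytosolic, 0.999% with nuclear and 0.995% with mitochondrial BS2, against 0.834% without transfection. Being a share within a library, it does not depend on scaling between libraries. HSP90AA1 made up 30.2% to 45.7% of it and HSPA1B 3.60% in 1 nucleolar pull-down to 17.8% in the cytosolic input.

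The transfected inputs held more HSPA1B, HSPA8 and BAG3 than the non-transfected input, with 1 library each and therefore no test. The ratio of CPM + 1 was 2.31 for HSPA1B and 2.05 for HSPA1A with cytosolic BS2, and 3.59% of all genes were at least 2-fold higher there. No other member reached 2-fold in that input. With nuclear BS2 the ratio was 1.58 for HSPA1B and 1.34 for HSPA1A, and with mitochondrial BS2 it was 1.39 and 0.998. HSPA8 stood at 1.46 with cytosolic, 1.45 with nuclear and 1.41 with mitochondrial BS2, and BAG3 at 1.54, 1.66 and 1.48. These constitutive and co-chaperone mRNAs were close to each other in the 3 inputs. By this ratio HSPA8 stood above 86.4% to 87.9% of all genes and BAG3 above 88.5% to 91.8%. HSPB1 was lower in all 3, at 0.705, 0.663 and 0.743. HSP90AA1 stayed between 0.868 and 1.05. With cytosolic, nuclear and mitochondrial BS2, HSPH1 was at 1.33, 1.10 and 1.23, DNAJA1 at 1.31, 1.15 and 1.17 and HSP90AB1 at 1.15, 1.12 and 1.02. DNAJB1 was at 1.36 with cytosolic, 1.25 with nuclear and 0.999 with mitochondrial BS2. With nuclear BS2 4.27% and with mitochondrial BS2 3.94% of all genes were at least 2-fold higher, and no member was. No member was at least 2-fold lower in any of the 3, where 1.69% of all genes were with cytosolic, 2.19% with nuclear and 2.40% with mitochondrial BS2.

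Set against inputs, pull-downs held less HSPB1, HSPA1A, HSPA1B, HSPA8 and DNAJB1, and less HSP90AB1 with BS2. They held more HSPH1, and more BAG3 with BS2 but not in non-transfected cells. The fit used 10 pull-downs and 4 inputs with the construct as a covariate. HSPB1 averaged 24.4 ± 15.7 CPM in pull-downs (SD, n = 10) and 70.2 ± 13.9 CPM in inputs (SD, n = 4), a change of -1.73 ± 0.19 (limma adjusted p = 1.36e-06). HSPA1A changed by -1.51 ± 0.21, HSPA1B by -1.36 ± 0.20, HSPA8 by -0.74 ± 0.13, DNAJB1 by -0.58 ± 0.07 and HSP90AB1 by -0.45 ± 0.11. HSP90AB1 was at -0.093 under quantile normalization and lost its call, and at -0.30 without the nuclear input. HSP90AB1 pull-downs minus their input averaged -0.43 with cytosolic, -0.88 with nuclear and -0.45 with mitochondrial BS2, against -0.032 in non-transfected cells. HSPH1 rose by 0.33 ± 0.08 and BAG3 by 0.21 ± 0.08, at an adjusted p of 0.0369 in limma for BAG3. HSPH1 turned to -0.40 once a trend with transcript length and GC content was taken out. BAG3 pull-downs minus their input averaged 0.45 with cytosolic, 0.30 with nuclear and 0.20 with mitochondrial BS2, against -0.093 in non-transfected cells, where all 3 libraries were below the input. The BAG3 call was lost under common total, median-of-ratios and quantile scaling and when either cytosolic pull-down, mitochondrial pull-down 1 or any of the 3 transfected inputs was left out. HSP90AA1, at -0.10 ± 0.12, and DNAJA1, at 0.01 ± 0.08, did not pass. The constructs differed for HSP90AA1, which averaged -0.13 with cytosolic, -0.50 with nuclear and 0.037 with mitochondrial BS2, against 0.20 in non-transfected cells. The 6 members that fell compare with 29.3% of all genes and the 2 that rose with 36.5%, and the 8 in either direction with 65.8%. Of 8 other HSP70 and HSP110 mRNAs 4 fell and 3 rose, and of 2 other small heat shock mRNAs tested none passed.

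Each construct was then set against its own input and the non-transfected difference taken off. Pull-down minus input for HSPA1B averaged -1.69 with cytosolic, -2.01 with nuclear and -1.59 with mitochondrial BS2, against -0.21 in non-transfected cells. The input-corrected change was therefore -1.48 ± 0.22 for cytosolic, -1.80 ± 0.21 for nuclear and -1.38 ± 0.22 for mitochondrial BS2 (limma adjusted p = 0.00185, 0.00022 and 0.00332). HSPA1B kept these calls under every alternative tried. No alternative left out an input here, since each construct had 1. For HSPA8 the input-corrected change was -0.50 ± 0.14 for cytosolic, -1.17 ± 0.14 for nuclear and -0.63 ± 0.14 for mitochondrial BS2, all past the threshold. The cytosolic HSPA8 call was lost when either cytosolic pull-down or non-transfected replicate 2 or 3 was left out, and by median-of-ratios scaling, a pseudocount of 5, no filter and no trend. The cytosolic and mitochondrial ones were lost under quantile normalization, where the nuclear one was at -0.50. HSPA1A passed for cytosolic, at -1.46 ± 0.37, and nuclear BS2, at -1.56 ± 0.36, the cytosolic call being lost without non-transfected replicate 3 or cytosolic replicate 2, with no filter and with no trend. HSP90AA1, at -0.70 ± 0.16, HSP90AB1, at -0.85 ± 0.14, and HSPB1, at -1.22 ± 0.38, passed with nuclear BS2. The HSP90 calls were lost under quantile normalization, and the HSPB1 call by common total, with no filter, with no trend, by the robust fit, with only the groups compared and without non-transfected replicate 1 or 3 or nuclear replicate 2. BAG3, at 0.54 ± 0.17 for cytosolic BS2, had an adjusted p of 0.0575 in limma and did not pass in any of the 3. BAG3 did pass for cytosolic BS2 with only the groups compared, with a filter of 5 CPM and once the trend with length and GC was taken out, and for nuclear BS2 without that trend and by common total, at 0.58.

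In these corrected comparisons 3 members fell with cytosolic BS2, where 2.77% of all genes did, 6 with nuclear, where 8.94% did, and 2 with mitochondrial, where 3.40% did. With the deposited scaling, the filter of 1 CPM, all 16 libraries and no block, no member rose, where 5.74% of all genes did with cytosolic, 7.63% with nuclear and 6.16% with mitochondrial BS2. In either direction 8.51%, 16.6% and 9.55% of all genes passed. Of 11 chaperone mRNAs of the endoplasmic reticulum, 3 fell with cytosolic, 7 with nuclear and 4 with mitochondrial BS2, and 1, 1 and 0 rose. Their median with nuclear BS2 was -0.74, against -0.78 for the members. With nuclear BS2 2596 genes rose and 961 fell by common total, against 1273 and 1492 before, and with mitochondrial BS2 965 rose and 813 fell by quantile normalization, against 1028 and 567, and 709 fell by median-of-ratios scaling. The correction rests on 1 input per construct, assumed to vary like the pull-downs, and on the same non-transfected input each time. For HSPA1B most of the corrected change with cytosolic BS2 lay in the inputs, 1992 against 863 CPM, and not in the pull-downs. The same held for HSPA8 with cytosolic and mitochondrial BS2, with inputs of 2321 and 2238 CPM, against 1587 CPM without transfection. Its pull-downs, at 0.05 and -0.14 against non-transfected ones, did not pass in the main test.

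**Figure D3:**
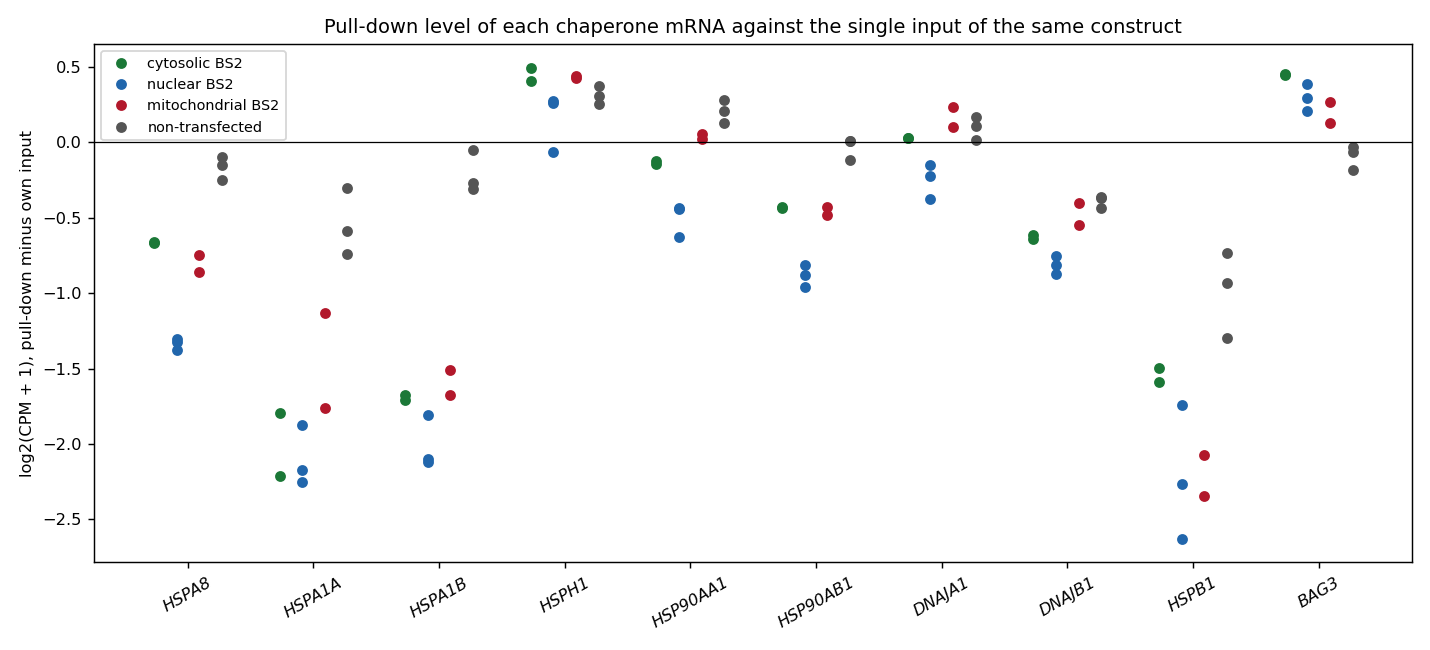
Difference between each pull-down and the single input of its construct on the log2(CPM + 1) scale for each chaperone mRNA, in the order cytosolic, nuclear and mitochondrial BS2 and non-transfected cells. For HSPA1B the 7 BS2 pull-downs lie between -2.12 and -1.51 and the 3 non-transfected ones between -0.31 and -0.05.

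The change between pull-down and input differed with the composition of the transcript. Median GC content of the annotated transcripts was 62.2% for HSPB1, 59.3% for HSPA1A and 58.7% for HSPA1B, the 3 members with the largest falls, and 40.3% for HSPH1 and 41.7% for DNAJA1, which did not fall. Across the 10 members the change had a Pearson r of -0.753 with GC content and 0.705 with log10 of transcript length. BAG3, with 56.9% GC and a rise, stood apart, and without it, a choice made after its values were seen, r with GC content was -0.956 over 9 genes. These points share the same 14 libraries, include HSPA1A and HSPA1B, which share reads, as separate points, and are given as a description. When a trend with length and GC over all genes was taken out, HSPH1 turned to -0.40 and DNAJA1 to -0.36, both past the threshold, while HSPB1, at -0.98, DNAJB1, at -0.26, HSPA1B, at -1.09, HSPA1A, at -1.19, HSP90AB1, at -0.78, and BAG3, at 0.58, kept their direction and passed. Over all scalings tried, this removal included, HSPA8 ran from -0.88 to -0.44 and HSP90AA1 from -0.39 to 0.086.

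**Figure D4:**
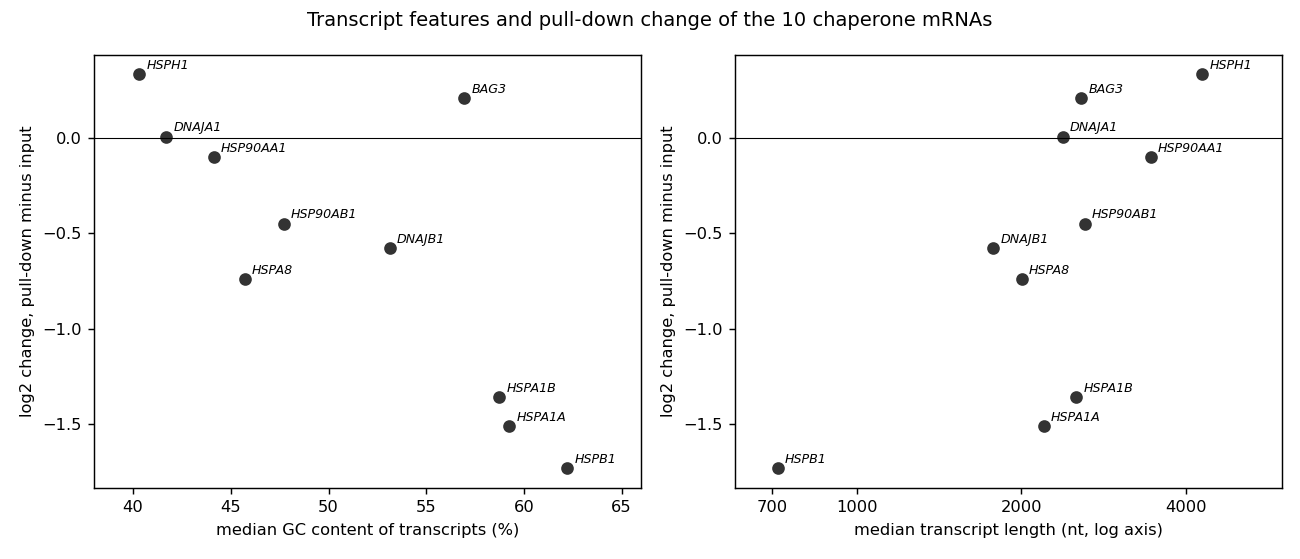
Change between pull-down and input on the log2(CPM + 1) scale, as fitted over 10 pull-downs and 4 inputs, for each chaperone mRNA against the median GC content (left) and the median length on a log axis (right) of its annotated transcripts. HSPH1, at 40.3% GC, lies highest and HSPB1, at 62.2% GC, lowest, with HSPH1 turning to -0.40 once the trend with length and GC was taken out, and BAG3 lies apart from the other 9.

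The log2 ratio of HSP90AA1 to HSP90AB1 averaged 0.99 in cytosolic, 0.85 in nuclear, 1.26 in mitochondrial and 1.16 in nucleolar BS2 pull-downs, against 1.06 in non-transfected ones. Mitochondrial and nucleolar libraries were above and cytosolic and nuclear ones below the non-transfected libraries. Over all 9 BS2 pull-downs the ratio was 1.04 ± 0.177 (SD, n = 9), against 1.06 ± 0.0379 (SD, n = 3), with a two-sided exact permutation p of 0.823. The 4 inputs, at 0.69, 0.46, 0.77 and, without transfection, 0.83, were lower than the pull-downs of the same cells. Among the HSP40 mRNAs the nucleolar libraries stood apart. DNAJB1 to DNAJA1 averaged -2.12 in cytosolic, -1.96 in nuclear, -2.38 in mitochondrial and -2.75 in nucleolar BS2 pull-downs, against -2.04 to -1.97 in non-transfected ones (exact permutation p = 0.214 for 9 against 3). HSPA1A to HSPA1B averaged -5.43 ± 0.35 (SD, n = 9) in BS2 pull-downs, against -5.54 ± 0.118 (SD, n = 3) in non-transfected ones, with an exact permutation p of 0.65. That difference of 0.11 ran from 0.054 on the deposited log2 values to 0.31 with a pseudocount of 5, and from 0.033 without nucleolar replicate 2 to 0.17 without cytosolic replicate 2. Adjusted over these 3 ratios, p was 0.641 for the HSP40 ratio and 0.823 for the other two. A single one of the 220 splits has a share of 0.00455.

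**Figure D5:**
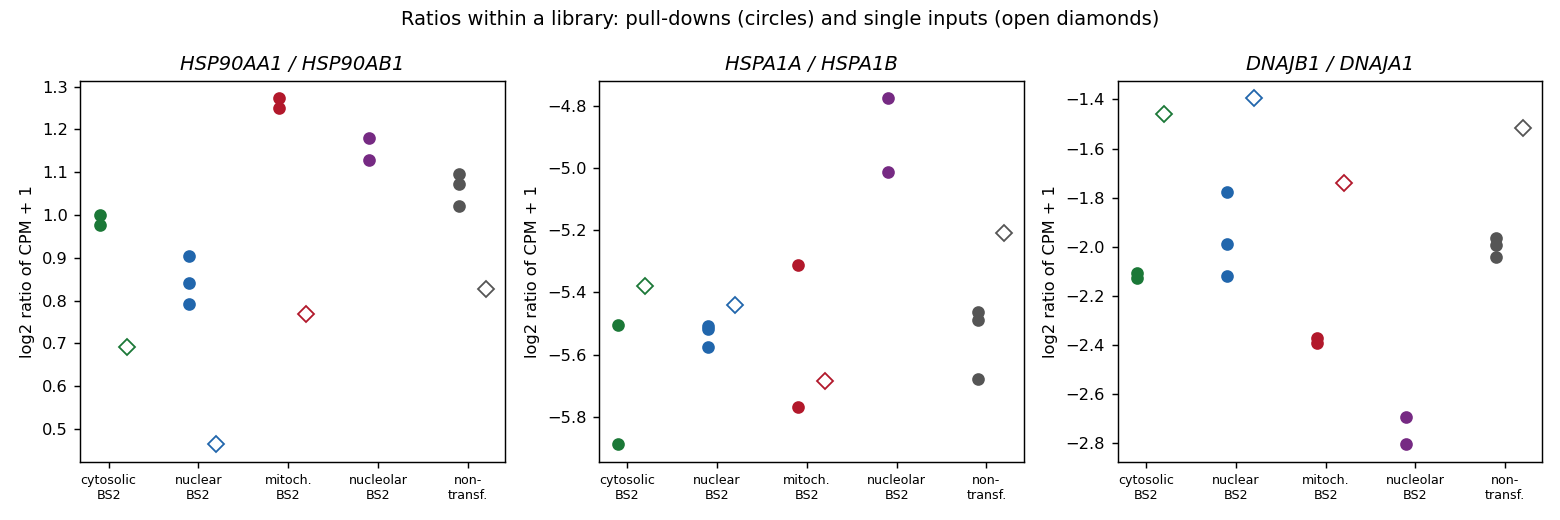
Log2 ratio within each library of HSP90AA1 to HSP90AB1, HSPA1A to HSPA1B and DNAJB1 to DNAJA1, from CPM + 1, in the order cytosolic, nuclear, mitochondrial and nucleolar BS2 and non-transfected cells, with pull-downs as circles and single inputs as open diamonds. The 2 nucleolar libraries have the lowest DNAJB1 to DNAJA1 ratios, at -2.81 and -2.70, and the 3 non-transfected pull-downs lie between -2.04 and -1.97.

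Over the 12 pull-downs, members moved in sets. On the log2(CPM + 1) scale the Pearson r was 0.955 between HSPH1 and DNAJA1, 0.937 between HSPA1A and HSPB1 and 0.93 between the HSP90 mRNAs, as a description across libraries that share groups. HSPA1A and HSPA1B reached 0.819, and HSPA1B and BAG3 -0.733. Among 10123 genes with a mean of at least 10 CPM, the gene most like HSPA8 over the 16 libraries was STIP1 (r = 0.98), which bridges HSP70 and HSP90. The gene most like HSPA1B was FKBP4, an HSP90 co-chaperone (r = 0.979), followed by CCT7, a subunit of the TRiC chaperonin (r = 0.97). BAG3 was most like PSRC1 (r = 0.99) and BTG2 (r = 0.983), HSPB1 like EDF1 (r = 0.991) and the ribosomal protein gene RPL28 (r = 0.988), and DNAJB1 like AP2A2 (r = 0.969). HSP90AB1 was most like STX8 (r = 0.981) and HSP90AA1 like VRK1 (r = 0.956), with HSP90B1, the HSP90 of the endoplasmic reticulum, the fifth (r = 0.948).

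The partners of these chaperones were counted beside them, as a description, since their lists were also chosen with earlier results known. Of 14 HSP90 co-chaperones, 12 fell and none rose in nuclear BS2 against non-transfected pull-downs, with a median of -0.43, where 34.2% of all genes fell and 32.2% rose. CACYBP changed by -0.93 ± 0.09, STIP1 by -0.69 ± 0.07 and FKBP4 by -0.59 ± 0.07. By common total 6 of the 14 fell and 2 rose. Of 8 TRiC subunits, 7 fell and none rose, with CCT3 at -1.19 ± 0.07, but under quantile normalization 2 fell and 3 rose and the median turned to 0.11. Of 8 HSP70 co-chaperones and BAG proteins, 2 rose and 3 fell, with BAG5 at 0.78 ± 0.07 and ST13 at -0.71 ± 0.09. The other 12 cytosolic HSP40 mRNAs went both ways, with 5 that rose and 2 that fell, and 7 other HSP70 and HSP110 mRNAs tested had 1 that rose and 3 that fell. HSF2, a heat shock factor, rose by 1.13 ± 0.09 and HSBP1, a binding protein of heat shock factor, changed by -1.13 ± 0.08, while HSF1 was at 0.25 ± 0.13 and did not pass. Of 6 other small heat shock mRNAs with values, HSPB8 alone was tested against non-transfected cells, at -0.15 ± 0.22, which did not pass, and CRYAB did not exceed 0.593 CPM in any library.

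With cytosolic BS2, 9 of 12 other HSP40 mRNAs rose and 1 fell, with a median of 0.34, where 28.9% of all genes rose and 22.4% fell, and DNAJC2 rose by 0.60 ± 0.10. Of 8 HSP70 co-chaperones and BAG proteins 4 rose and none fell, with BAG5 at 0.70 ± 0.08. Under quantile normalization 6 of the HSP40 mRNAs rose and 1 fell. With nucleolar BS2, 8 of 12 HSP40 mRNAs rose and 3 fell, with DNAJC2 at 1.44 ± 0.10 and DNAJB4 at 1.31 ± 0.14, and of 14 HSP90 co-chaperones 5 rose and 4 fell, with CHORDC1 at 1.37 ± 0.14, where 30.1% of all genes rose and 35.6% fell. With mitochondrial BS2, 7 of 12 HSP40 mRNAs rose and 1 fell, and of 14 HSP90 co-chaperones 3 rose and 7 fell, where 28.9% of all genes rose and 27.0% fell. Against input, 9 of 14 HSP90 co-chaperones fell and 3 rose, with CDC37, the adaptor of kinases to HSP90, at -0.87 ± 0.08, and 5 of 8 TRiC subunits fell and none rose, where 29.3% of all genes fell and 36.5% rose. HSF2 rose with all 4 constructs, by 1.13 to 1.44, and lay at 64.4 to 80.7 CPM in the inputs and at 134 to 188 CPM in the 9 BS2 pull-downs, against 63.1 to 74.7 CPM in the non-transfected ones.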

How the data were processed

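The authors' deposited table gives log2 values of CPM for each gene and library, with scaling between libraries. Its lowest value, -2.5907, corresponds to a constant of 0.166 added before taking logs, so values were put back on the linear CPM scale and this constant subtracted. The constant was read from the values, and the tests had been planned for a table in CPM. Per the submitters' processing notes, STAR 2.7.9a, Salmon 1.4.0, limma and GRCh38 were used, with no order or role given. Of 39823 lines, 14906 were empty and 39 were repeats, which left 24878 genes. Values came out as whole reads in 69.1% to 84.2% of cases (tolerance 0.01), so no count test was run.

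The main test was limma 3.58.1 (R 4.3.3) with a mean-variance trend on log2(CPM + 1), over genes with at least 1 CPM in 2 libraries, without a replicate block, and was tested on simulated data with known changes. All 12 pull-downs shared 1 estimate of the spread. Corrected comparisons used all 16 libraries, where an input with 1 library was assumed to vary like the pull-downs. P-values of comparisons between pull-down groups measure the spread between libraries labelled as biological replicates. In the fit of pull-downs against inputs, the spread also takes in how that difference varies between constructs. In the ratio tests it takes in differences between the constructs, whose BS2 pull-downs were pooled. Ratios were tested by exact permutation in SciPy 1.17.1. The members and the lists of partner genes were chosen with earlier results of these data known. All 10 members are named; from each list, up to 3 genes with the smallest adjusted p per comparison, and up to 5 genes most like a member. HSF1 and CRYAB were added for their roles after their values were seen. No nucleolar input was analysed here.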

Additional observations from a re-analysis of the deposited data

Results flagged for a closer look

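These 11 results are listed because the difference between pull-down and input, compared between BS2 and non-transfected cells, passed a test of the difference itself in limma. HSPA1B was lower by that measure with all 3 constructs that have an input, at -1.48 for cytosolic, -1.80 for nuclear and -1.38 for mitochondrial BS2 on the log2(CPM + 1) scale. HSPA8 was at -0.50 for cytosolic, -1.17 for nuclear and -0.63 for mitochondrial BS2. Its cytosolic and mitochondrial pull-downs alone did not pass against non-transfected ones, and neither did the cytosolic ones of HSPA1B and HSPA1A. HSPA1A was at -1.46 for cytosolic and -1.56 for nuclear BS2, and its reads cannot be told apart from those of HSPA1B over most of its length. With nuclear BS2, HSP90AA1 was at -0.70, HSP90AB1 at -0.85 and HSPB1 at -1.22. Each rests on 1 input per construct and on the same non-transfected input, and the part of a single input in these differences was not tested.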

How the results depend on the processing

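Among the alternative values for single members, 2159 kept direction and side of the threshold, 59 newly passed, 92 no longer passed and 38 turned; a value that passed in neither fit counted as turned only where it moved by more than its standard error. The length and GC trend removal and leaving out inputs were chosen after seeing the data. Under quantile normalization, against non-transfected cells, HSP90AA1 was at 0.20 and HSP90AB1 at 0.27 with cytosolic BS2; HSPA8 was at 0.33, HSPH1 at 0.27, HSP90AB1 at 0.13 and DNAJA1 at 0.25 with nuclear, and HSPA8 at 0.38 with mitochondrial BS2. Under it BAG3 was at 0.18 in nuclear against cytosolic, HSP90AA1 at -0.79 in mitochondrial against cytosolic, and HSPA1B at -0.25, HSP90AA1 at -0.11 and HSP90AB1 at -0.17 in nucleolar against nuclear pull-downs. HSP90AA1 was then at 0.086 against input and HSPH1 at 0.079 in the corrected nuclear comparison. By common total, with nuclear BS2 against non-transfected cells, HSPH1 was at 0.26, DNAJA1 at 0.14 and DNAJB1 at 0.18 (0.24, 0.12 and 0.16 without mitochondrially encoded genes). BAG3 was at 0.20 by both in nuclear against cytosolic. In nucleolar against nuclear, HSPA1B was at -0.18 and DNAJB1 at -0.044 (-0.15 and -0.0090 without those genes), and HSPH1 was at 0.040 in the corrected nuclear comparison. With the length and GC trend removed, DNAJB1 was at 0.078 with mitochondrial BS2, HSPH1 at -0.40 and DNAJA1 at -0.36 against input, HSPH1 at -0.23 in the corrected cytosolic and -0.20 in the corrected mitochondrial comparison, and DNAJA1 at -0.11 there. DNAJA1 was at -0.077 against input with median-of-ratios scaling. The cause of these turns was not tested.

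Leaving out 1 library at a time, HSPH1 ranged from -0.080 to 0.089 with nuclear BS2, DNAJB1 from -0.074 to 0.18 with nucleolar BS2, HSPA1B from -0.14 to 0.17 in nucleolar against nuclear, HSP90AA1 from -0.21 to 0.042 against input, and the HSP90AA1 to HSP90AB1 difference from -0.0529 to 0.00724, against -0.0236 with all libraries. Members that passed with cytosolic BS2 numbered 5, against 9 with the length and GC trend removed and 8 with only the groups compared. In mitochondrial against cytosolic pull-downs 1 passed, against 2 under quantile normalization, 0 with no filter on low values, 0 with no trend, 4 with only the groups compared and 0 to 0 when leaving out 1 library. In the corrected cytosolic comparison 3 passed, against 6 with the trend removed, 1 with no filter, 1 with no trend, 5 with only the groups compared and 1 to 3 when leaving out 1 library, 1 being without non-transfected replicate 3 or cytosolic replicate 2. In the corrected mitochondrial comparison 2 passed, against 4 with the trend removed.

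Of 21 pairs of same-numbered libraries, 5 had deviations correlated over 0.1, with a median r of -0.00108. In groups of 2 libraries the deviations mirror each other, and sample codes of the cytosolic pull-downs differ from their replicate numbers, so whether libraries pair cannot be decided. Between the non-transfected and nuclear groups, of 3 libraries each, same-numbered r was -0.00108, 0.107 and 0.238. Differently numbered libraries of these groups ranged from -0.205 to 0.143. A replicate block gave 2 calls in mitochondrial against cytosolic pull-downs and left the other counts of members within 1.5 times, though not all the same genes. Under it HSPA1A lost its call with nucleolar BS2 (limma adjusted p = 0.0724) and HSPA8 in the corrected cytosolic comparison (0.0625). BAG3 (0.0272) gained one there, and HSPB1 gained one in mitochondrial against cytosolic pull-downs (0.029) and in the corrected mitochondrial comparison (0.0094). The lowest value of any member was that of HSPA1A, 5.58 CPM in nuclear pull-down 1, where 1 read stood for 0.0968 CPM. An effect of depth was not tested.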
